A study of Drosophila melanogaster with 9 samples.

Results

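*SK* and *NAAT1* are neighbouring genes on chromosome X of *Drosophila melanogaster*, chosen by their symbols from the table of raw counts, and they are 2 of the 16492 gene symbols in it. They were chosen with their high counts in wing disc cells that overexpress *hop* already known, so every value that sets the hop libraries against other libraries is a description of these genes and carries no test. Comparisons of cells with raised Myc against control cells were not used in the choice but share the control libraries with it. *SK* encodes the small conductance calcium-activated potassium channel of the fly. Its pore opens when calcium binds to calmodulin, which is held on the channel, and the potassium that leaves the cell lowers its excitability, a role studied mostly in neurons, photoreceptors and muscle. *NAAT1* encodes a nutrient amino acid transporter of the SLC6 family, whose members carry amino acids or neurotransmitters into cells together with sodium.

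The study asked which genes differ between control cells of the wing disc and cells with raised JAK/STAT signaling or raised Myc, both of which outcompete their neighbors. Control cells had the genotype w/+; +/+; dpp-gal4, uas-gfp/+, STAT supercompetitors carried uas-hop on the homolog of dpp-gal4, uas-gfp, and Myc supercompetitors carried uas-myc there, so all 3 groups share the driver, the GFP transgene and the w/+ background. GFP-positive cells of the *dpp* domain, a stripe of the disc where the driver is active, were sorted from pooled discs of wandering larvae of the last instar, and each genotype has 3 libraries, named gfp 1 to 3, hop 1 to 3 and Myc 1 to 3. Nothing in the labels says that the libraries of a genotype came from separate crosses, so p-values measure the spread between these libraries, which may be technical.

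Raw counts summed to 5110634 to 6104490 per library. *hop*, the JAK kinase, was at 1145 to 1432 CPM (counts scaled to the same library size, so that libraries of unequal depth can be compared) in the hop libraries and at 58.6 to 79.97 in the other 6, and *dm*, the fly *Myc* gene, was at 538 to 774 CPM in the Myc libraries and at 233 to 351 elsewhere, as the labels state. The JAK/STAT targets *Socs36E* and *chinmo* were also higher in every hop library than in every other library, at 85.3 to 90.9 and 537 to 761 CPM. The library Myc 1 stood apart from its group. On the first principal component of all libraries, where the gfp mean is set to 0 and the hop mean to 1, Myc 1 lay at 0.76 and the other Myc libraries at -0.23 and -0.06, so results that rest on the Myc libraries are given with and without it. Markers of the wing disc epithelium were present in every library, at a summed 2702 to 3436 CPM for 8 genes.

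The 2 genes lie tail to tail. In the BDGP6 annotation (dm6 coordinates), *SK* runs from 5340236 to 5405138 on the plus strand of chromosome X and *NAAT1* from 5405238 to 5410849 on the minus strand. Their 3′ ends are separated by 99 bases, and neither gene shares exon bases with the other or with any other annotated gene. *SK* is long, at 64903 bases with 10891 bases of exon in 19 merged exons, and has 14 annotated transcripts from 3 start sites and with 4 end sites. Of these transcripts, 2 reach the end of the gene next to *NAAT1*, and the next annotated end lies 934 bases before it. *NAAT1* is compact, with 1 transcript of 2485 bases in 8 exons within 5612 bases. The counts hold 1 value per gene, so they do not say which *SK* transcripts were present or from which strand a read came.

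*SK* was moderately expressed in control cells and much higher in STAT supercompetitors. It had 219, 175 and 282 counts in gfp 1, gfp 2 and gfp 3, which is 40.1, 30.03 and 43.3 CPM. In the hop libraries it had 1757, 1080 and 1765 counts, or 327, 191 and 309 CPM. Every hop library lay above every gfp library, and the lowest hop library was 4.40-fold above the highest gfp library. Across all 12741 genes tested, 14.8% had hop libraries that were all above the gfp libraries. The means were 37.8 ± 6.93 CPM in gfp and 275.5 ± 74.0 CPM in hop (SD, n = 3 each), a fitted log2 fold change of 2.86 (SE 0.249), or 7.28-fold. This placed *SK* 41st from the top by fold change, and the same comparison had 6.52% of genes past an adjusted p of 0.05, a share from which nothing is read for genes that were chosen on it. By level, *SK* was at rank 3410 of 12741 in gfp and at rank 550 in hop.

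In Myc supercompetitors *SK* was not detectably different from the control. It had 216, 100 and 194 counts in Myc 1, Myc 2 and Myc 3, at 38.6, 21.1 and 31.6 CPM, with a mean of 30.4 ± 8.81 (SD, n = 3). The Myc and gfp libraries overlapped. The log2 fold change of Myc against gfp was -0.31 (SE 0.250, approximate 95% interval -0.80 to 0.18), which did not pass the quasi-likelihood test of edgeR with Benjamini-Hochberg adjustment over all genes (adjusted p = 0.668). In that comparison 2.86% of all genes passed. The interval excludes a rise of the size seen in hop, and without Myc 1 the value was -0.49. *SK* in Myc 1, the library that lay towards the hop libraries on the first principal component, was within the range of the gfp libraries.

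Set against the Myc libraries, the hop libraries were again all higher for *SK*, with a log2 difference of 3.17 (SE 0.254), or 9.01-fold, and the lowest hop library 4.94-fold above the highest Myc library. Hop libraries lay wholly above Myc libraries in 11.4% of all genes tested. This comparison uses the same hop libraries as the one with gfp and is not a second observation of them. Without Myc 1, the value of *SK* was 3.39 in hop against Myc and 2.90 in hop against gfp.

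*NAAT1* was close to the limit of detection in control cells. It had 3, 3 and 4 counts in gfp 1, gfp 2 and gfp 3, at 0.549, 0.515 and 0.615 CPM, and the summed 10 counts have an exact Poisson 95% interval of 4.80 to 18.4, which covers counting error only. In the hop libraries there were 59, 37 and 50 counts, at 10.97, 6.53 and 8.76 CPM, and the sum of 146 has an interval of 123 to 172. Every hop library lay above every gfp library, the lowest of them 10.6-fold above the highest gfp library. The mean was 0.559 ± 0.0507 CPM in gfp and 8.75 ± 2.22 CPM in hop (SD, n = 3 each), a log2 fold change of 3.91 (SE 0.568), or 15.04-fold, the 15th largest of all genes tested. The fold change of *NAAT1* exceeded that of *SK*, while its level remained far lower. The 3′ ends of the 2 genes lie 99 bases apart, and whether counting used strand is not stated. Reads from *SK* RNA that ran past its end could not be told from *NAAT1* reads, and their part was not tested. Per kilobase of exon, *SK* was at 25.3 CPM and *NAAT1* at 3.52 CPM in hop, against 3.47 and 0.225 in gfp.

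**Figure D1:**
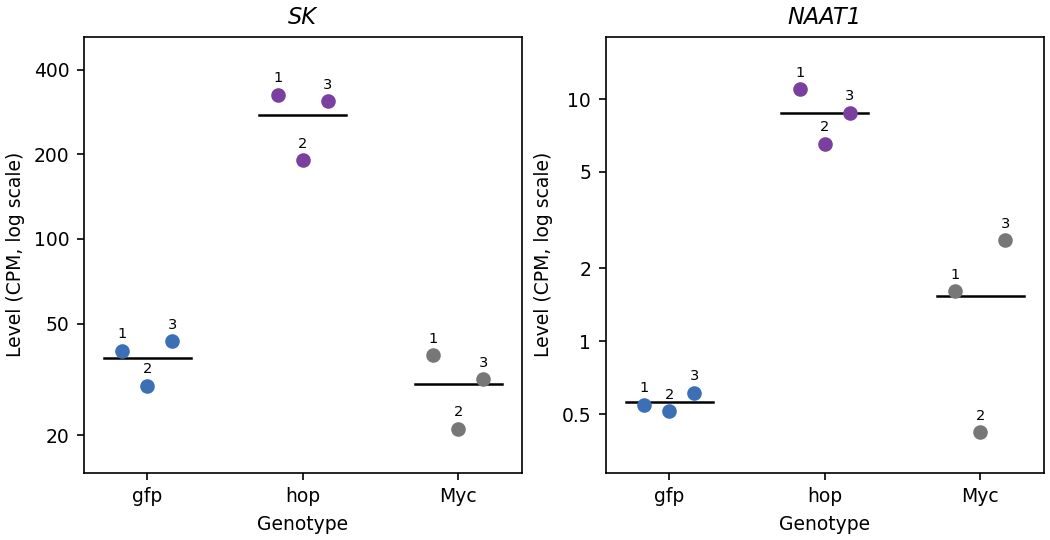
Level of *SK* (left) and *NAAT1* (right) in each of the 9 libraries, in CPM on a log axis. Points are libraries with their number, and the line is the mean of the 3 libraries of a genotype. For both genes the 3 hop libraries sit above the other 6, and library 2 is the lowest within each genotype. For *NAAT1* the order in gfp and Myc rests on few counts.

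In Myc supercompetitors *NAAT1* was uneven. Myc 1, Myc 2 and Myc 3 had 9, 2 and 16 counts, at 1.61, 0.422 and 2.61 CPM, with a mean of 1.55 ± 1.09 (SD, n = 3), so 2 libraries lay above all gfp libraries and Myc 2 lay below them. The log2 fold change of Myc against gfp was 1.47 (SE 0.631, approximate 95% interval 0.23 to 2.70), with an adjusted p of 0.293 in the edgeR test. *NAAT1* passed the filter on low counts only through the hop libraries, which chose it, so nothing is read from that test. The log2 fold change rested on few reads. It was 0.87 without Myc 3, 1.89 without Myc 2 and 1.49 without Myc 1, and the sum of 27 counts has an exact Poisson interval of 17.8 to 39.3. The hop libraries were all higher than the Myc libraries, with a log2 difference of 2.44 (SE 0.499), or 5.44-fold, and the lowest hop library 2.51-fold above the highest Myc library, and the difference was 2.46 without Myc 1.

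The 2 genes had their lowest levels in the same libraries. In each genotype, library 2 had the lowest level of both *SK* and *NAAT1*, and in gfp and hop the order of all 3 libraries was the same for both genes. For *NAAT1* the order in gfp rests on 3, 3 and 4 counts, so gfp 1 and gfp 2 differ only by library size. The gfp ranks of *NAAT1* are within counting error. Its place in Myc 2 rests on 2 counts, where Myc 1 had 9 and Myc 3 had 16. In Myc the order differed, with *SK* highest in Myc 1 and *NAAT1* highest in Myc 3. The coefficient of variation of *SK* was 18.3% in gfp, 26.9% in hop and 29.0% in Myc, so its spread relative to the mean was of similar size in the 3 genotypes. Over the 9 libraries, the log2 CPM values of the pair had a Pearson correlation of 0.916, a description that rests mostly on the gap between the hop libraries and the rest and is shared with many genes. *NAAT1* was the 87th most similar gene to *SK*, and *SK* the 38th most similar to *NAAT1*.

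*NAAT1* took a small and unequal part of the counts of the pair. Its share was 1.35, 1.69 and 1.399% in gfp 1, gfp 2 and gfp 3, and 3.25, 3.31 and 2.75% in hop 1, hop 2 and hop 3. In the Myc libraries it was 4.0, 1.961 and 7.62%. Summed over libraries, the share was 1.46% in gfp (exact Clopper-Pearson 95% interval 0.701 to 2.66), 3.07% in hop (2.60 to 3.61) and 5.03% in Myc (3.34 to 7.23), intervals that cover counting error only. The shares were widest apart among the Myc libraries. The mean share was 3.05 percentage points higher in Myc than in gfp, and all 3 Myc libraries lay above all 3 gfp libraries. These values are a description without a test, since the gfp libraries were part of the choice of the pair. The gfp shares rest on 3, 3 and 4 counts of *NAAT1*. Myc 2, on 2 of 102 counts, has an exact 95% interval of 0.238 to 6.90%, which covers the gfp shares. The difference in mean share was 3.31 points without Myc 1, 4.33 without Myc 2 and 1.502 without Myc 3. Its size therefore rests most on Myc 3, and leaving out libraries here was chosen after seeing the data.

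**Figure D2:**
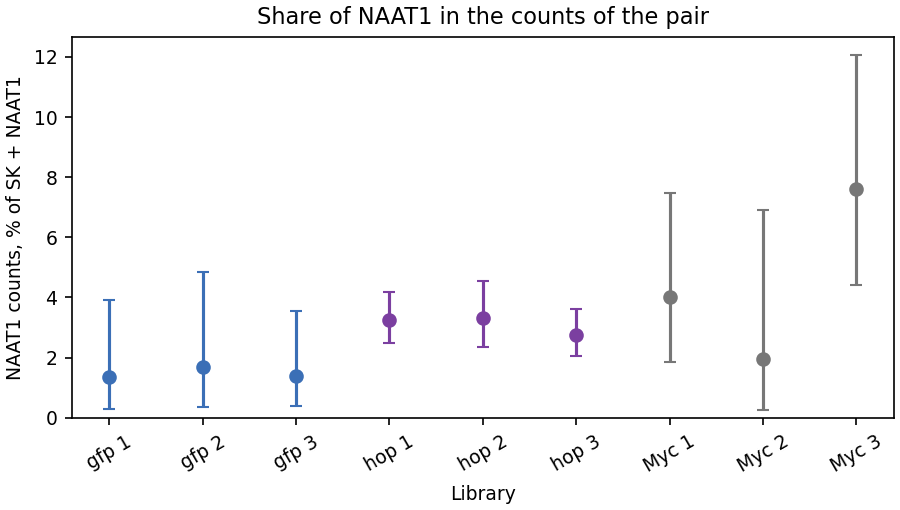
Counts of *NAAT1* as a percentage of the counts of *SK* and *NAAT1* together, by library, with exact 95% binomial intervals for counting error. The hop libraries lie between 2.75 and 3.31% with narrow intervals, the gfp libraries between 1.35 and 1.69%, and Myc 3 is the highest at 7.62%.

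The pair stood above the genes around it in hop. Besides *SK* and *NAAT1*, 28 genes are annotated within 100 kb of the pair, of which 26 are in the table of counts and 21 passed the filter on low counts. In hop against gfp, 0 of these 21 passed the edgeR test, where 6.52% of all genes did, 7 of them had an unadjusted p under 0.05, which 24.6% of all genes had, and DESeq2, which called 1325 genes in all, called 1, the noncoding RNA gene *CR45517* (log2 fold change 1.003, adjusted p = 0.0490). Their median log2 fold change was 0.39, against -0.02 over all genes. Without Myc 1, edgeR called 1948 genes in all in hop against gfp, where it called 831 with all libraries. Of the 21 neighbours it then called 5, namely *spoon*, *TrxT*, *CR45517*, *CG15784* and *SPR*, with log2 fold changes of 0.42, 0.97, 1.004, 0.87 and 1.79.

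The nearest gene in the table on the *SK* side is *CanB*, a regulatory subunit of the calcium-activated phosphatase calcineurin, which ends at 5334449. It was at 7.27 ± 0.912 CPM in gfp and at 5.79 ± 1.76 in hop (log2 fold change -0.33, adjusted p = 0.583 by edgeR), and at 4.70 ± 0.593 in Myc (-0.62, adjusted p = 0.455). On the *NAAT1* side the nearest is *spoon*, which encodes a protein that anchors protein kinase A and lies from 5412386 to 5420867. *spoon* was at 264 ± 23.9 CPM in gfp, 346 ± 44.2 in hop and 389 ± 59.6 in Myc. It did not pass in hop (log2 fold change 0.39, adjusted p = 0.0806 by edgeR) and rose in Myc (0.56, adjusted p = 0.0275). It was the only gene of the 21 called in Myc against gfp (4.76%, against 2.86% of all genes). That call was lost without any 1 of gfp 1, gfp 2, gfp 3 or Myc 1. The largest value of a neighbour in hop was that of *SPR*, the sex peptide receptor, at 1.76 (adjusted p = 0.146). Its annotation shares 999 exon bases with *frma*, and its reads could not be divided between the 2 genes.

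**Figure D3:**
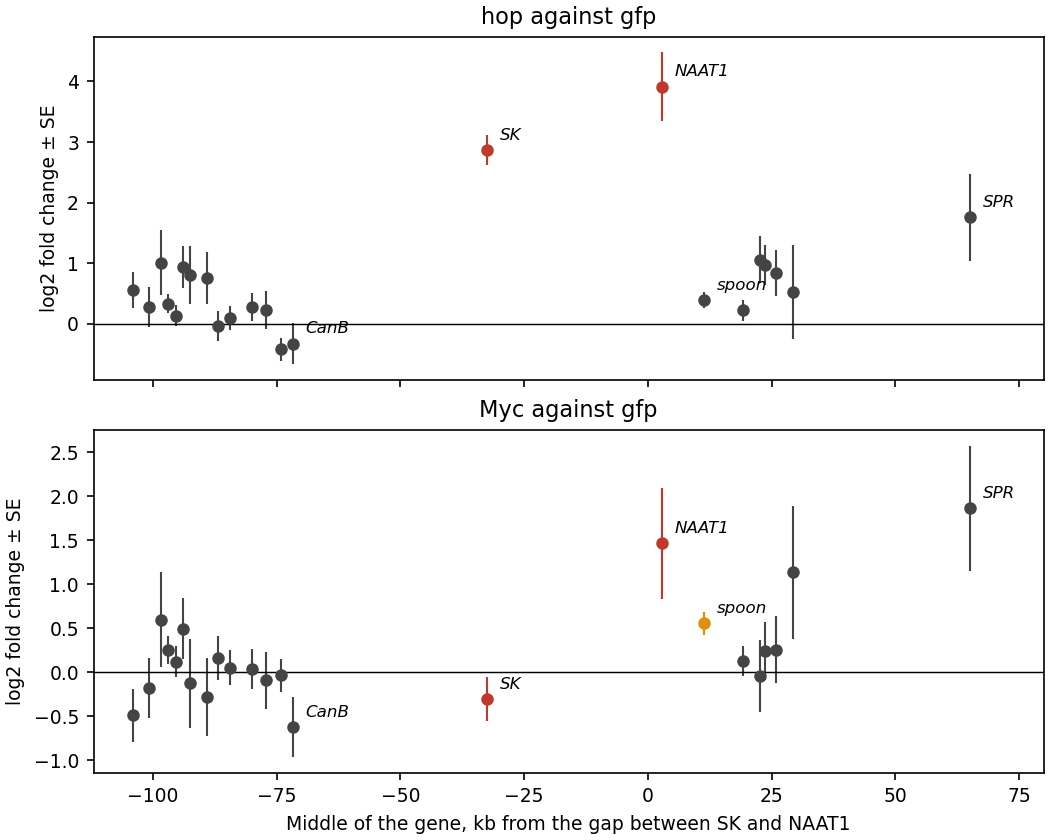
Fitted log2 fold change with its SE for *SK*, *NAAT1* (red) and the 21 tested genes within 100 kb, by the position of the middle of each gene relative to the gap between the pair, in hop against gfp (top) and Myc against gfp (bottom). *SK* at 2.86 and *NAAT1* at 3.91 stand above their neighbours in the top plot, and in the bottom plot *spoon* (orange) is the gene that passed the test.

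Among potassium channel genes besides *SK*, 1 passed the test in hop. Of 20 other genes for potassium channels or their subunits in the table, 19 were tested, with 1 higher and 0 lower in hop against gfp (5.26%, against 6.52% of all genes), 8 at an unadjusted p under 0.05 (24.6% of all genes) and a median log2 fold change of -0.13. The one that rose was *Irk1*, an inward rectifier, with 88.4 ± 2.30 CPM in gfp and 152 ± 5.21 in hop (log2 fold change 0.78, adjusted p = 0.00348), and it shares exon bases with *CG46310* and *cnc*. Just short of the threshold were *eag*, a voltage-gated channel (1.28, adjusted p = 0.0502), and *Elk*, its relative (0.95, adjusted p = 0.0558), while *Shal*, which carries fast transient currents, had a value of -1.13 (adjusted p = 0.0657). DESeq2, which called 1325 genes in all, called *Irk1*, *eag* and *Elk* as higher and *Shal* as lower. Without Myc 1 edgeR called 1948 genes in all, among them these 4 in the same directions and, as lower at -0.97, the leak channel *Ork1*. *slo*, the large conductance calcium-activated potassium channel, had a log2 fold change of -0.35 (SE 0.210, adjusted p = 0.320), and *SLO2*, listed as *CG42732*, one of -0.30 (adjusted p = 0.673). In Myc against gfp 0 of the 19 passed in edgeR, where 2.86% of all genes did, and 0 in DESeq2. Among them 1, *sei* (-0.63, adjusted p = 0.135 by edgeR), had an unadjusted p under 0.05, against 14.1% of all genes.

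By level, *SK* stood higher among the channels in hop than in the other genotypes. Per kilobase of exon, *SK* was 10th of 21 potassium channel genes in gfp at 3.47 CPM and 11th in Myc at 2.79 CPM. In hop it was second at 25.3 ± 6.79 CPM, behind *Irk1* at 28.9 ± 0.993, from which it did not stand apart beyond its spread, and ahead of *KCNQ* at 8.89 ± 1.499. In gfp the highest were *Irk1* at 16.8, *sei* at 8.56 and *KCNQ* at 8.34 CPM per kilobase. The summed level of the 20 other channel genes was 446 to 482 CPM in the gfp libraries and 450 to 571 in the hop libraries, ranges that overlap.

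**Figure D4:**
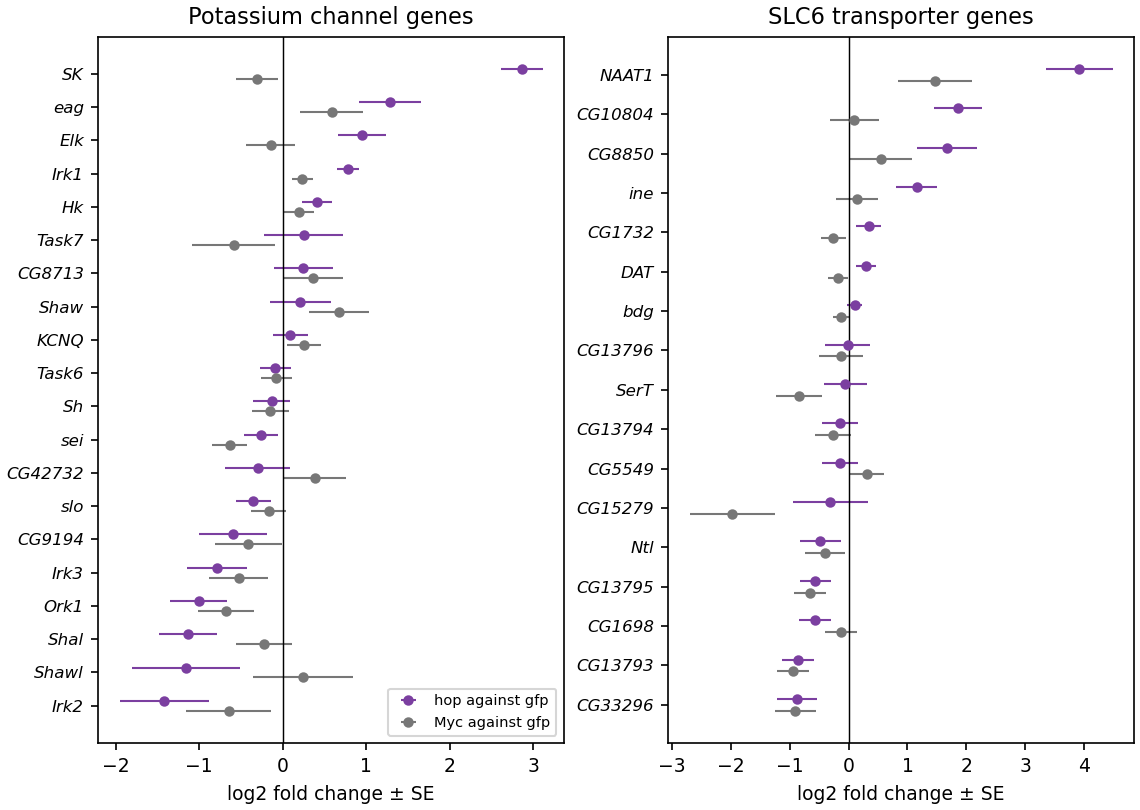
Fitted log2 fold change with its SE in hop against gfp (purple) and Myc against gfp (grey) for *SK* and 19 other potassium channel genes (left) and for *NAAT1* and 16 other SLC6 transporter genes (right). *SK* and *NAAT1* have the largest values of their families in hop, at 2.86 and 3.91, followed by *eag* at 1.28 and *CG10804* at 1.86.

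Genes that supply or sense the calcium to which SK responds included 3 calls in hop. Of 17 tested genes for calcium channels, pumps, stores and calmodulin, 2 rose and 1 fell in hop against gfp (17.6%, against 6.52% of all genes). An unadjusted p under 0.05 was found for 6 (24.6% of all genes), and the median was 0.24. The list was chosen with earlier results of these data known, so nothing is read from the share called. *Cam*, which encodes the calmodulin that gates SK channels, was at 984 ± 60.2 CPM in gfp and rose to 1427 ± 134 in hop (log2 fold change 0.54, adjusted p = 0.0119), a gene that shares exon bases with a noncoding RNA gene. *Ca-alpha1D*, a voltage-gated calcium channel, rose from 17.0 ± 7.29 to 38.0 ± 1.87 CPM (1.16, adjusted p = 0.0408), and *olf186-F*, the store-operated calcium channel Orai, fell from 167 ± 17.8 to 103 ± 0.465 CPM (-0.70, adjusted p = 0.0192). These calls were not stable, since all 3 were lost without gfp 2, without gfp 3 or without hop 3, and the last 2 also without hop 1 or hop 2. Without Myc 1, where edgeR called 1948 genes in all, 7 of these genes were called. They were the same 3 and *cac*, *Ca-alpha1T*, *RyR* and *Trpm*, the last 4 each higher. In Myc against gfp 0 passed in edgeR, where 2.86% of all genes did, and 0 in DESeq2. An unadjusted p under 0.05 was found for 3 of the 17, against 14.1% of all genes. Without Myc 1, where edgeR called 411 genes in all in Myc against gfp, *RyR* was lower at -0.81 (adjusted p = 0.0446).

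Ion pumps, chloride cotransporters and gap junction genes, which set the resting potential of the disc epithelium together with potassium channels, showed no call in edgeR. Of 10 tested, 0 passed in hop against gfp, a comparison in which 6.52% of all genes did, so that a count of 0 says little about so few genes. In that comparison 1, *nrv2*, a subunit of the sodium pump, had an unadjusted p under 0.05, as 24.6% of all genes had (log2 fold change 0.42, adjusted p = 0.0567). DESeq2 called *nrv2* (adjusted p = 0.0395), as did edgeR without Myc 1 (0.46, adjusted p = 0.0175). In Myc 0 passed in either tool, where 2.86% of all genes passed in edgeR. There 3 of the 10 had an unadjusted p under 0.05, against 14.1% of all genes. *Inx2*, an innexin of gap junctions, was the most abundant by CPM, at 918 ± 24.2 in gfp and 991 ± 70.1 in hop.

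The SLC6 relatives of *NAAT1* were called in hop at about the share of all genes. Of 18 in the table, 16 were tested, and 1 rose and 0 fell in hop against gfp (6.25%, against 6.52% of all genes), with 5 at an unadjusted p under 0.05 (24.6% of all genes) and a median log2 fold change of -0.10. The one that rose was *CG10804*, at 8.10 ± 2.65 CPM in gfp and 29.3 ± 8.98 in hop (1.86, adjusted p = 0.0179), a call lost without gfp 2, without gfp 3 or without hop 3. *ine*, a transporter with a role in osmotic balance of the Malpighian tubules and in neuronal excitability, was at 32.5 ± 6.78 in gfp and 72.4 ± 13.0 CPM in hop (1.16, adjusted p = 0.0733), and *CG8850* had a value of 1.67 (adjusted p = 0.0749). Both were called by DESeq2, which called 1325 genes in all. Without Myc 1 edgeR called 1948 genes in all, among them *CG10804*, *ine* and *CG8850* as higher and *CG13793* as lower. The transporters of dopamine (*DAT*) and GABA (*Gat*, listed as *CG1732*) had values of 0.30 and 0.34 and were not called (adjusted p = 0.294 and 0.330). In Myc against gfp 0 of 16 passed in edgeR (2.86% of all genes), and 5 had an unadjusted p under 0.05 (14.1% of all genes), all with lower levels. DESeq2 called *CG13793* as lower (-0.93, adjusted p = 0.0321).

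Even at its hop level *NAAT1* was in the middle of its family. Per kilobase of exon it was 18th of 19 SLC6 genes in gfp at 0.225 CPM, 16th in Myc at 0.622 CPM and 10th in hop at 3.52 ± 0.892 CPM. *CG1732* was the highest in all 3 genotypes, at 28.3, 23.6 and 35.9 CPM per kilobase in gfp, Myc and hop, followed by *DAT* at 16.4, 14.5 and 20.2.

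Amino acid transporters of other families included calls in Myc. Of 19 tested, 4 rose and 0 fell in Myc against gfp, which is 21.1% where 2.86% of all genes passed. In hop against gfp 1 rose, which is 5.26% where 6.52% of all genes passed. As with the other lists, these genes were chosen with earlier results of these data known, so both shares are descriptions. *path*, a transporter that promotes growth, was at 105 ± 1.64 CPM in gfp and rose to 198 ± 33.7 in Myc (log2 fold change 0.92, adjusted p = 0.00169) and had a value of 0.20 in hop (adjusted p = 0.361). *mnd*, a leucine transporter homolog, rose in both, by 0.93 in Myc (adjusted p = 0.00296) and by 0.70 in hop (adjusted p = 0.0133), the latter lost without any 1 of the gfp libraries. The others that rose in Myc were *CG5535* (0.96, adjusted p = 0.0196) and *JhI-21* (0.60, adjusted p = 0.0331). Both calls were lost without any 1 of the gfp libraries or without Myc 2, and without Myc 1 *JhI-21* was not called and the other 3 were. *NAAT1* itself did not pass in Myc, in a test that it entered only through its counts in hop.

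Markers of other cell types were followed because SK is known from neurons and muscle. All 8 neuronal markers were tested and none was at 0 in a library. In hop against gfp 1 rose (12.5%, against 6.52% of all genes), the sodium channel gene *para*. It was at 160 ± 11.9 CPM in gfp and 270 ± 51.3 in hop (log2 fold change 0.76, adjusted p = 0.00626 by edgeR), a call lost without gfp 2. *elav* had a value of 0.32 (adjusted p = 0.199). The summed level of the 8 markers was 741 to 1024 CPM in the gfp libraries, 827 to 1369 in the hop libraries and 529 to 917 in the Myc libraries. These ranges overlap. Within genotypes the sum was highest in gfp 1, hop 1 and Myc 1, and it was lowest in gfp 3, hop 2 and Myc 2. *SK* and *NAAT1* were also lowest in hop 2 and Myc 2, but in gfp they were lowest in gfp 2. The part of neurons in the values of the pair was not tested, and more cells that express a gene cannot be told apart from more RNA per cell in sorted pools. Of 7 markers of muscle precursors, *Mef2* rose and *zfh1* and *stumps* fell in hop (log2 fold changes 0.65, -0.90 and -1.80), which is 42.9% against 6.52% of all genes, with a summed level of 314 to 400 CPM in gfp and 324 to 354 in hop. The calls of *Mef2* and *zfh1* were lost without any 1 of the gfp libraries, without hop 1 or without hop 3. Of 5 tested markers of hemocytes, *Hml* rose and *Pxn* fell (1.22 and -1.69), or 40.0%, with sums of 80.7 to 91.0 and 86.6 to 102 CPM. *Hml* was lost without gfp 2 or gfp 3, and *Pxn* without gfp 2. Within both lists, calls went in both directions. Of the markers of glia, trachea and peripodial cells, 0 of 5, 0 of 3 and 0 of 4 passed in edgeR and in DESeq2 in hop, where 6.52% of all genes passed in edgeR. At an unadjusted p under 0.05 were 2, 1 and 0 of them (24.6% of all genes). The median log2 fold change of the glial markers in hop was 0.51. Without Myc 1, where edgeR called 1948 genes in all, 1 glial marker, *alrm*, was called as higher (0.86, adjusted p = 0.0316). Of 3 markers of the anterior compartment and the *dpp* stripe, *ci* rose in hop (0.43, adjusted p = 0.0337 by edgeR), or 33.3%, against 6.52% of all genes. That call was lost without any 1 of the gfp libraries, without hop 2 or without hop 3. The posterior markers *en*, *inv* and *hh*, which the sorted stripe should largely lack, summed to 122 to 133 CPM in gfp. Their sums were 94.6 to 112 in hop and 72.0 to 82.7 in Myc, ranges that do not overlap. Of all genes taken singly, 31.3% had no overlap in hop against gfp and 21.2% in Myc against gfp. In hop against gfp the log2 fold changes were -0.03 for *en*, -0.49 for *inv* and 0.17 for *hh*, and 0 of the 3 were called. Of these 3 genes, *inv* fell in Myc (-0.85, adjusted p = 0.00704 by edgeR), or 33.3%, against 2.86% of all genes. The part of these cells in the values of the pair was not tested.

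The genes with the most similar pattern over the 9 libraries were found by the Pearson correlation of log2 CPM with each of the 2 genes, a measure that rests on the hop libraries as a group. For *SK* these were *CG2658* (0.980), *mfas* (0.978), *sda* (0.976), *CG10514* (0.973) and *mthl8* (0.973). They differed widely in level and size of change. *sda*, an aminopeptidase gene whose mutants are prone to seizures, was at 192 ± 11.8 CPM in gfp, 553 ± 54.1 in hop and 194 ± 32.2 in Myc, whereas *mthl8*, a receptor of the Methuselah family, had 0 counts in all gfp and Myc libraries and 84 to 89 counts in the hop libraries. *CG2658* was at 25.2, 62.3 and 22.0 CPM in gfp, hop and Myc, with its lowest hop value in hop 2 and its lowest Myc value in Myc 2, as *SK* had. Its lowest gfp value was in gfp 1, whereas that of *SK* was in gfp 2.

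For *NAAT1* the most similar genes were *CG5621* (0.979), *Ubi-p5E* (0.965), *CG12184* (0.964), *Mbs* (0.964) and *CR45389* (0.963). *CG5621* was, like *NAAT1*, nearly absent from the control, with 3, 1 and 2 counts in gfp, 31, 19 and 31 in hop and 4, 0 and 10 in Myc. It also shared the order of the Myc libraries with *NAAT1*, Myc 3 being the highest and Myc 2 the lowest, as did *Ubi-p5E*, *CG12184* and *Mbs*. All were picked for their likeness in these same libraries, so nothing is read from a shared order. *Mbs*, the myosin-binding subunit of myosin phosphatase, was at 178 ± 8.97 CPM in gfp and 230 ± 10.6 in hop, a small difference beside that of *NAAT1*. Of the 10 genes, *CG2658*, *Ubi-p5E* and *CG12184* are on chromosome X, more than 100 kb from the pair.

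**Figure D5:**
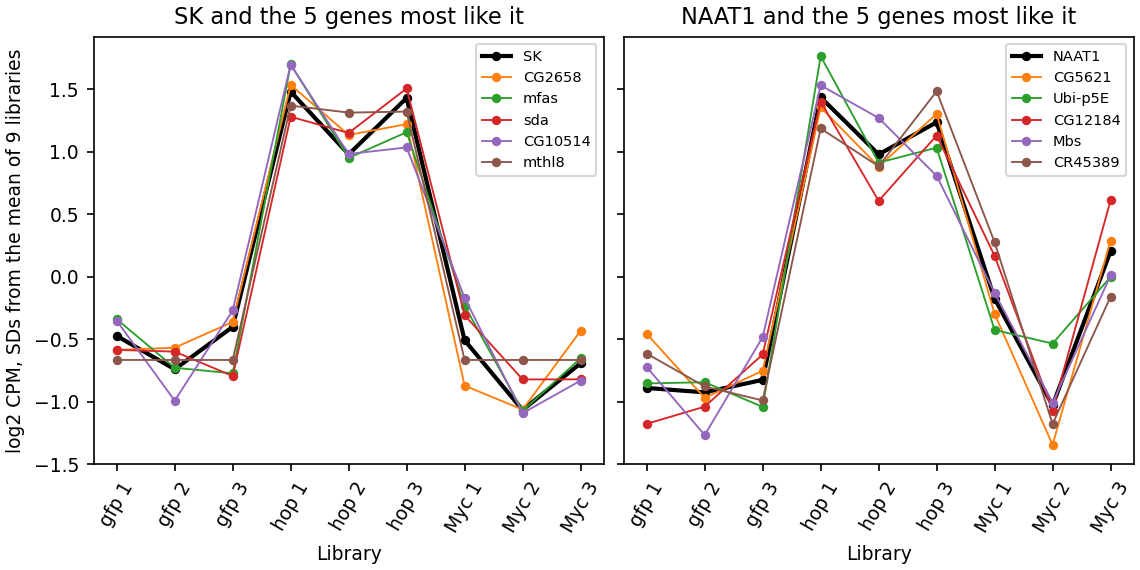
Log2 CPM of *SK* (left) and *NAAT1* (right) in black and of the 5 genes most similar to each, in the 9 libraries, in standard deviations from each gene's own mean. Each of the 12 curves has its highest value in a hop library. The curves on the right are lower at Myc 2 than at Myc 3. So are those of *SK*, *CG2658*, *mfas* and *CG10514* on the left, while *sda* and *mthl8* are nearly level there.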

How the data were processed

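The authors aligned paired-end reads to dm6 with STAR, removed PCR duplicates with Picard and counted reads on exons with HTSeq, which gave the deposited whole-number count of each gene symbol. The deposited signal values of the normalized table are counts divided by a size factor of each library. They gave back whole reads for 100% of values within 0.02 of a read, and these reads served as an alternative. That table lists 17408 symbols and shares 15974 with the raw one. Not given in the sources used here were tool versions, the release of the annotation and whether counting used strand. The labels name polyadenylated RNA, the methods of the paper total RNA. The library kit amplified cDNA, and reads carry no molecular identifiers.

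From the raw counts, 12741 genes passed filterByExpr and were fitted with the robust quasi-likelihood model of edgeR 4.0.16 in R 4.3.3 on all 9 libraries, with TMM normalization. The fit left 6 residual degrees of freedom, and p-values were adjusted by the Benjamini-Hochberg method over all genes. Called means an adjusted p under 0.05. CPM uses TMM library sizes, and similarity used log2 CPM with a prior count of 2. The test was checked on simulated counts. Symbols were matched to the BDGP6 annotation, release as in the reference used here, for 16170 of 16492 symbols. The 2 genes and the gene lists were chosen with earlier results of these data known, so the share called in a list is a description. Named in the text are both genes, the label checks, the nearest gene on each side and called genes within 100 kb, up to 4 called and up to 4 abundant members of each list, and the 5 genes most similar to each. Genes just short of the threshold, or called only in an alternative, were named after their values were seen. The alternatives were normalization by RLE or by the upper quartile, no filter, a minimum of 10 counts in each library, DESeq2 1.42.0, a fit on the 6 libraries of 1 comparison, a block for the replicate number, recovered reads, and each library left out in turn. Protein and promoter sequences were not used here.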

Additional observations from a re-analysis of the deposited data

How the results depend on the processing

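The values of *SK* and *NAAT1* kept their direction in every alternative that gave a value. The test of *SK* in Myc against gfp also stayed on its side of the threshold. From the test of *NAAT1* in that comparison nothing is read, since the gene entered it only through its counts in hop. Leaving out each library in turn, the log2 fold change of hop against gfp ranged from 2.72 to 3.11 for *SK* and from 3.75 to 4.12 for *NAAT1*, that of Myc against gfp from -0.49 to -0.09 and from 0.87 to 1.89, and that of hop against Myc from 2.99 to 3.396 and from 2.05 to 3.04. *NAAT1* had too few counts to be tested with at least 10 counts in every library, and in Myc against gfp also with the 6 libraries alone or in DESeq2, where its adjusted p was not given.

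Counts of called genes depended on the processing, and the cause was not tested. The genes called in hop against gfp numbered 831, and 1325 with DESeq2, 1692 with the replicate number as a block, 1676 with the 6 libraries alone and 140 to 1948 with a library left out, the highest without Myc 1. In Myc against gfp they numbered 364, and 553 with DESeq2, 584 with the block and 124 to 467 with a library left out. Of the potassium channels, 1 was called in hop, but 2 with RLE or recovered reads, 3 without the filter, 4 with DESeq2, 5 with the block or the 6 libraries, and 1 to 5 with a library left out. Of the calcium genes, 7 were called with the block or the 6 libraries and 0 to 7 with a library left out, and in Myc 1 with the block and 0 to 1. Of the pumps and gap junction genes, 1 was called with RLE, without the filter, with DESeq2, the block or the 6 libraries, and 0 to 1 with a library left out. Of the SLC6 genes, 3 were called with DESeq2, 4 with the block or the 6 libraries and 0 to 4 with a library left out, and in Myc 1 with DESeq2. Of the other amino acid transporters, 3 were called in hop with DESeq2, the block or the 6 libraries and 0 to 3 with a library left out, and in Myc 2 to 4. Of the genes within 100 kb, 1 was called in hop with DESeq2 or the block, 5 with the 6 libraries and 0 to 5 with a library left out, and in Myc 0 to 1.

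The replicate numbers are shared by the 3 genotypes. Libraries with the same number had correlated deviations from -0.14 to 0.39, negative only for hop 3 and Myc 3. For libraries with different numbers they ran from -0.344 to 0.219. Whether the numbers mark pairs was not settled, and the main fit did not use them. With the block, the log2 fold change of Myc against gfp was -0.33 for *SK* (SE 0.136, adjusted p = 0.199 by edgeR). It was 1.39 for *NAAT1* (SE 0.616), given without its test. The SE of *SK* in hop against gfp was 0.1315 with the block and 0.249 without it. The difference in the share of *NAAT1* between Myc and gfp ranged from 1.502 to 4.33 points with a gfp or Myc library left out, an alternative chosen after seeing the data. Depth limits *NAAT1* most, with 2 to 16 counts per library outside hop.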
